A study of Mus musculus with 653 samples.

Results

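The transforming growth factor beta (TGF-beta) and activin genes described here are 10 of the 54195 genes in the count table. They were taken as a list: the ligands Tgfb1, Tgfb2, Tgfb3 and Inhba, the receptors Tgfbr1, Tgfbr2, Tgfbr3, Acvr2a and Acvr2b, and Tgfbi. Their reads were followed in single cells of embryonic mouse liver. Males carrying Lgr5-EGFP-IRES-creERT2, an allele that places green fluorescent protein under the Lgr5 promoter, on a C57BL/6 background were mated with MF1 females, and all embryos used came from this cross. Livers of embryonic stages E10.5 and E13.5 (days after mating) were dissociated, and cells staining for the hepatoblast antigen Liv2 but not for CD31 or CD45 were sorted as bulk cells or, where they also fluoresced, as Lgr5-GFP+ cells. Over 5 library pools, E10.5 bulk held 42, 41, 41, 42 and 37 cells and E10.5 Lgr5-GFP+ 45, 47, 40, 41 and 38, and E13.5 bulk held 34, 34, 33, 34 and 24 and E13.5 Lgr5-GFP+ 13, 27, 19, 14 and 7 cells. No label ties a cell to an embryo, a litter or a sort. Each of the 4 groups was therefore treated as a single sample, and differences between them carry no test. E13.5 livers were digested for longer than E10.5 livers, and stage and digestion cannot be told apart.

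Within the groups, cells were split by marker reads. A cell with more than 10 reads of Afp (alpha-fetoprotein, a secreted hepatoblast protein), Klf1 (a transcription factor of red cell precursors), Pdgfra (a growth factor receptor of mesenchyme) or Pax3 (a transcription factor of muscle precursors), and at most 10 of the other three, entered the lineage named after that gene. At E10.5 this gave 6 Afp, 32 Klf1, 75 Pdgfra and 2 Pax3 cells of the bulk sort and 53 Afp, 0 Klf1, 64 Pdgfra and 23 Pax3 cells of the Lgr5-GFP+ sort. E13.5 bulk cells were mostly of the Klf1 lineage (78.6%, with 30, 17, 27, 30 and 21 cells in pools 1 to 5) and held 1 Pdgfra cell. E13.5 Lgr5-GFP+ cells gave 2 Afp, 3 Klf1, 7 Pdgfra and 5 Pax3 cells. A further 13 cells passed for several markers and 242 for none. The labels call every cell a hepatoblast, but only 9.34% of all cells were in the Afp lineage.

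TGF-beta ligands are secreted in a latent form held by their own propeptide. Once released, a ligand dimer binds the type II receptor Tgfbr2, which recruits and phosphorylates the type I receptor Tgfbr1, and the pair signals through Smad2 and Smad3. Activins are dimers of inhibin beta chains, bind the type II receptors Acvr2a or Acvr2b, which also serve several bone morphogenetic proteins, and use the same Smads. In the developing liver this signalling is known for its effects on hepatoblast fate, on bile duct formation and on matrix production by mesenchyme.

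Levels are given as reads summed over the cells of a set per 1000000 reads on genes (RPM), with exact Poisson 95% intervals, and shares of cells with more than 10 reads of a gene carry exact Clopper-Pearson 95% intervals. Both cover counting error only, since amplified reads are not independent molecules. Where no read was seen, the bound given is that of 3 reads. Cells held 463347 to 2279700 reads on genes, with a median of 1192740. The range over library pools with at least 5 cells of a set is the spread given here. Pools 1 and 2 had medians of 4515 and 4488 genes detected per cell against 6280.5 to 6606 in pools 3, 4 and 5. The 10 erythroid markers summed to 3175 RPM in E10.5 and 7059.9 RPM in E13.5 Klf1 cells. The 10 hepatoblast markers summed to 18844 RPM in E10.5 Afp cells, and the 10 mesenchyme markers to 4780.3 RPM in E10.5 Pdgfra cells. These Pdgfra cells also held 682 RPM over 6 mesothelial markers, of which Alcam alone gave 498 RPM and Wt1 73.9 RPM. E10.5 Pax3 cells held 1500.2 RPM over 8 muscle progenitor markers and 673 RPM over the mesenchyme markers. The sum for a lineage's own type includes the marker that set the lineage, a part fixed by the split itself. At E10.5 that part was 974.8 RPM of Klf1, 2276.4 RPM of Afp, 331.1 RPM of Pdgfra and 685.7 RPM of Pax3. The 5 E13.5 Pax3 cells had a median per cell of 972 RPM over the muscle progenitor markers and of 269 RPM over 7 megakaryocyte markers, although the latter summed to 12154 RPM over the set. These 5 cells are not described further.

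Of the 10 genes, Tgfbr1 was found most often, with more than 10 reads in 39.97% of all cells, followed by Tgfbr3 with 26.95%, Acvr2b with 25.7%, Acvr2a with 25.6% and Tgfb2 with 23.7%. Tgfbi passed in 16.2% of cells, Tgfb1 in 12.3%, Tgfbr2 in 9.80% and Tgfb3 in 3.22%. Inhba, which encodes the beta A chain of activin A, had 1 read over all cells, in an E13.5 Klf1 cell. At least 1 of the 5 receptors passed in 451 cells (69.1%), and at least 1 of the 3 Tgfb ligands in 230 (35.2%). By summed level, among the E10.5 lineages, Tgfb2 was highest in Pdgfra and Pax3 cells and Tgfb1 in Klf1 cells.

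**Figure D1:**
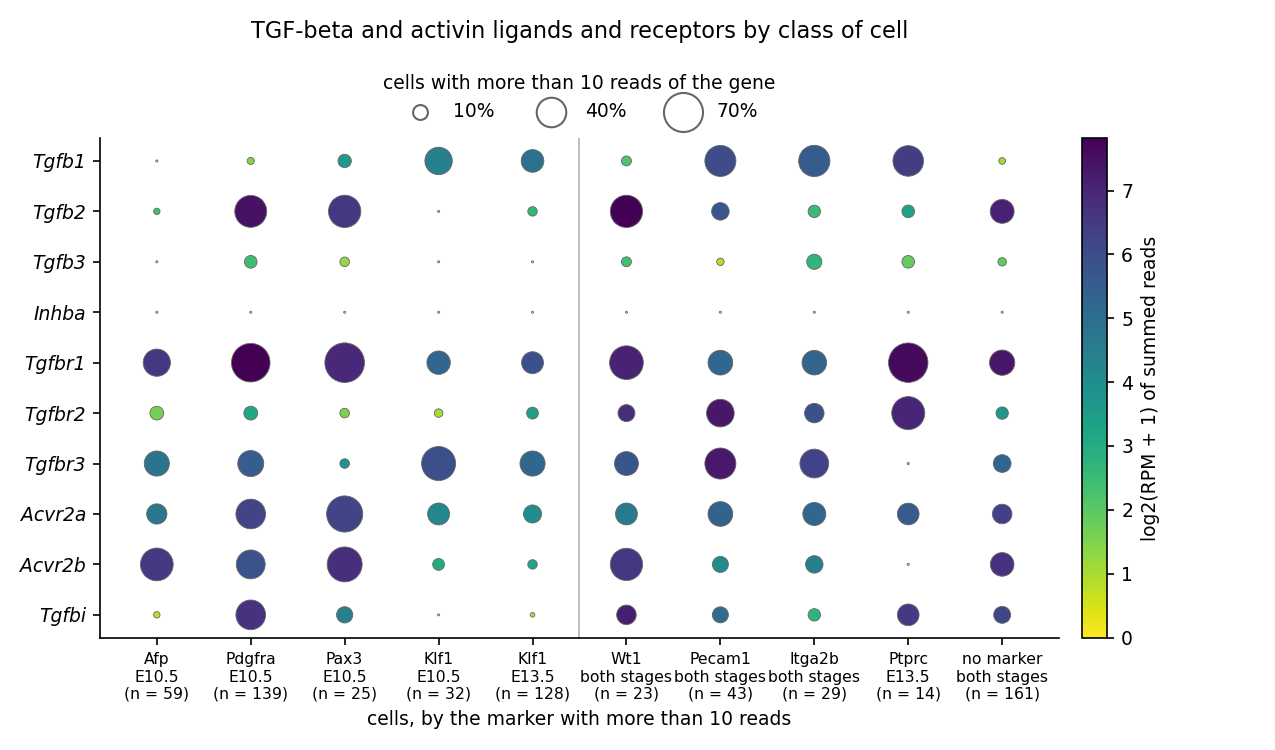
Each column is a set of cells (named marker with more than 10 reads, stage, number of cells) and each row a gene. The colour is log2(RPM + 1) of summed reads, and the circle area follows the share of cells with more than 10 reads of the gene. Tgfb2 stands at 175.8 RPM in E10.5 Pdgfra cells and 0.153 RPM in E10.5 Klf1 cells, while Tgfb1 stands at 1.68 and 20.95 RPM. The sets right of the grey line hold cells outside the 4 lineages and overlap one another, apart from the last.

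The promoters of Tgfb1 and Tgfb2 are shown because their summed levels were highest in different E10.5 lineages. Each runs from 250 bases before to 50 after the start in RefSeq, build GRCm38.p6, 5′ to 3′ along the gene. Tgfb1 lies on the plus strand (chr7:25686752-25687051) and Tgfb2 on the minus strand (chr1:186705940-186706239). Capitals mark GC boxes (GGGCGG), E-boxes (CACGTG) and TATA boxes (TATAAA), searched on both strands.
Tgfb1: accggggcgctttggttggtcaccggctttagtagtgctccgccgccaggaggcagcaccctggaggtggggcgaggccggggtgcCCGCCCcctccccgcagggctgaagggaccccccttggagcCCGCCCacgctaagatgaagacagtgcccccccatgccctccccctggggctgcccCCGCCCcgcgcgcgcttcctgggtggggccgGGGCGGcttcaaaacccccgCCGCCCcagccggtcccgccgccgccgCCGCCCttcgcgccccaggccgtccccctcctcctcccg
Tgfb2: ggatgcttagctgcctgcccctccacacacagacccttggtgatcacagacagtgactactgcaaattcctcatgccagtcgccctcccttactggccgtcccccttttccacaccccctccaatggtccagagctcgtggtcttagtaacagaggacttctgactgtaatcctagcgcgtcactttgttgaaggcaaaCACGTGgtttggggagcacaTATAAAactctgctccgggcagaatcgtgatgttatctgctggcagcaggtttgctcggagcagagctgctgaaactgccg

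The Tgfb1 window held 6 GC boxes, no E-box and no TATA box, with a GC content of 77%. The Tgfb2 window held no GC box, 1 E-box at −51 and 1 TATA box at −31 from the start, with a GC content of 54.3%, against a median of 52.7% over 32851 promoters of this length. A GC box was present in 35.7% of those promoters, a TATA box in 13.6% and an E-box in 7.15%, and neither ligand's window overlapped 2 motifs at 1 place. Further letters searched but not marked were GATA motifs (AGATAA), cyclic AMP response elements (TGACGTCA) and Smad boxes (GTCTAGAC). The Tgfb2 window held 1 GATA motif, at +2, a motif present in 11.2% of promoters. Neither window held any other of these. Among the other members, Acvr2a and Acvr2b held 3 GC boxes each, Tgfbi and the upstream Tgfbr1 promoter 2 each, and Tgfbr2 none. Inhba held a TATA box at −91. RefSeq entries were matched for 8 of the 10 members (9 promoters), and Tgfb3 and Tgfbr3 were not matched. A match of letters is a description of these windows and no evidence that a factor binds there.

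Tgfb2 (ENSMUSG00000039239, chr1:186622792-186705989, minus strand), the ligand with the most reads in these livers, was high in Pdgfra and Pax3 cells. In E10.5 Pdgfra cells it stood at 175.8 RPM (95% interval 173.9 to 177.8), and 65 cells (46.8%, 38.3 to 55.4%) held more than 10 reads. The level was 176.04, 257, 176.6, 172.5 and 118.4 RPM in pools 1, 2, 3, 4 and 5. It was 92.7 RPM (89.4 to 96.1) in Pax3 cells, where 12 of 25 cells (48%, 27.8 to 68.7%) passed. Every pool value of both lineages lay above 29.2 RPM, the highest pool value in Afp cells. In Afp cells Tgfb2 had 4.30 RPM in all, but 94.3% of those reads came from 1 cell, and 0.252 RPM remained without it. E10.5 Klf1 cells had 0.153 RPM (0.0562 to 0.333) and 0 of 32 cells (up to 10.9%) with more than 10 reads. At E13.5, Klf1 cells had 5.30 RPM (4.92 to 5.69), with 5 (3.91%) cells past 10 reads. The cells of the E10.5 Pdgfra lineage that carried Tgfb2 varied widely: those past 10 reads ranged from 14.8 to 1756 RPM with a median of 188.9 RPM, whereas the median over all cells of the lineage was 4.07 RPM. Reads of the unstranded libraries cannot separate Tgfb2 from its antisense gene Gm29491 over the exon bases they share, and Gm29491 itself had 785 reads in all cells.

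Tgfb1 (ENSMUSG00000002603, chr7:25687002-25705077, plus strand), a ligand known from blood and immune cells, was highest by summed level in Klf1 cells among the E10.5 lineages. Its level was 20.95 RPM (95% interval 19.5 to 22.4) in E10.5 Klf1 cells, with 11 of 32 cells (34.4%, 18.6 to 53.2%) past 10 reads, and 28.6 RPM (27.8 to 29.5) in E13.5 Klf1 cells, with 30 cells (23.4%, 16.4 to 31.7%). Pool values at E13.5 were 7.11, 34.4, 23.7, 41.9 and 41.8 RPM in pools 1, 2, 3, 4 and 5, and at E10.5 3.60, 31.2 and 33.8 RPM in pools 3, 4 and 5. The ranges of the stages overlapped. In E10.5 Afp cells 1 read was seen (0.0136 RPM (0.000345 to 0.0760)), and 0 of 59 cells (up to 6.06%) passed 10 reads. E10.5 Pdgfra cells had 1.68 RPM (1.49 to 1.89) with 3 cells (2.16%, 0.447 to 6.18%). Of the 3 pools with at least 5 cells of both lineages, Tgfb1 was higher in Pdgfra than in Klf1 cells in 1 and lower in 2. The 11.2 RPM of Pax3 cells rested on 1 cell, which gave 96.6% of the reads and left 0.394 RPM without it.

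Tgfb3 (ENSMUSG00000021253, chr12:86056745-86079041, minus strand), the ligand known for its role in palate closure, was rare. It reached 4.28 RPM (95% interval 3.97 to 4.60) in E10.5 Pdgfra cells, where 10 cells (7.19%, 3.50 to 12.8%) passed 10 reads. It had no read there in pools 1 and 2, with 5.06, 10.04 and 2.61 RPM in pools 3, 4 and 5. Neither Afp nor Klf1 cells of E10.5 held a read, which allows up to 0.0409 and 0.0766 RPM at 3 reads. Pax3 cells had 1.42 RPM, 97.8% of it in 1 cell. For Inhba (ENSMUSG00000041324, chr13:16011851-16031621, plus strand), the E10.5 cells gave 0 reads in 414 cells, up to 0.00585 RPM, and the E13.5 cells 1 read in 239. Inhba message was not detectable at this depth outside that read.

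**Figure D2:**
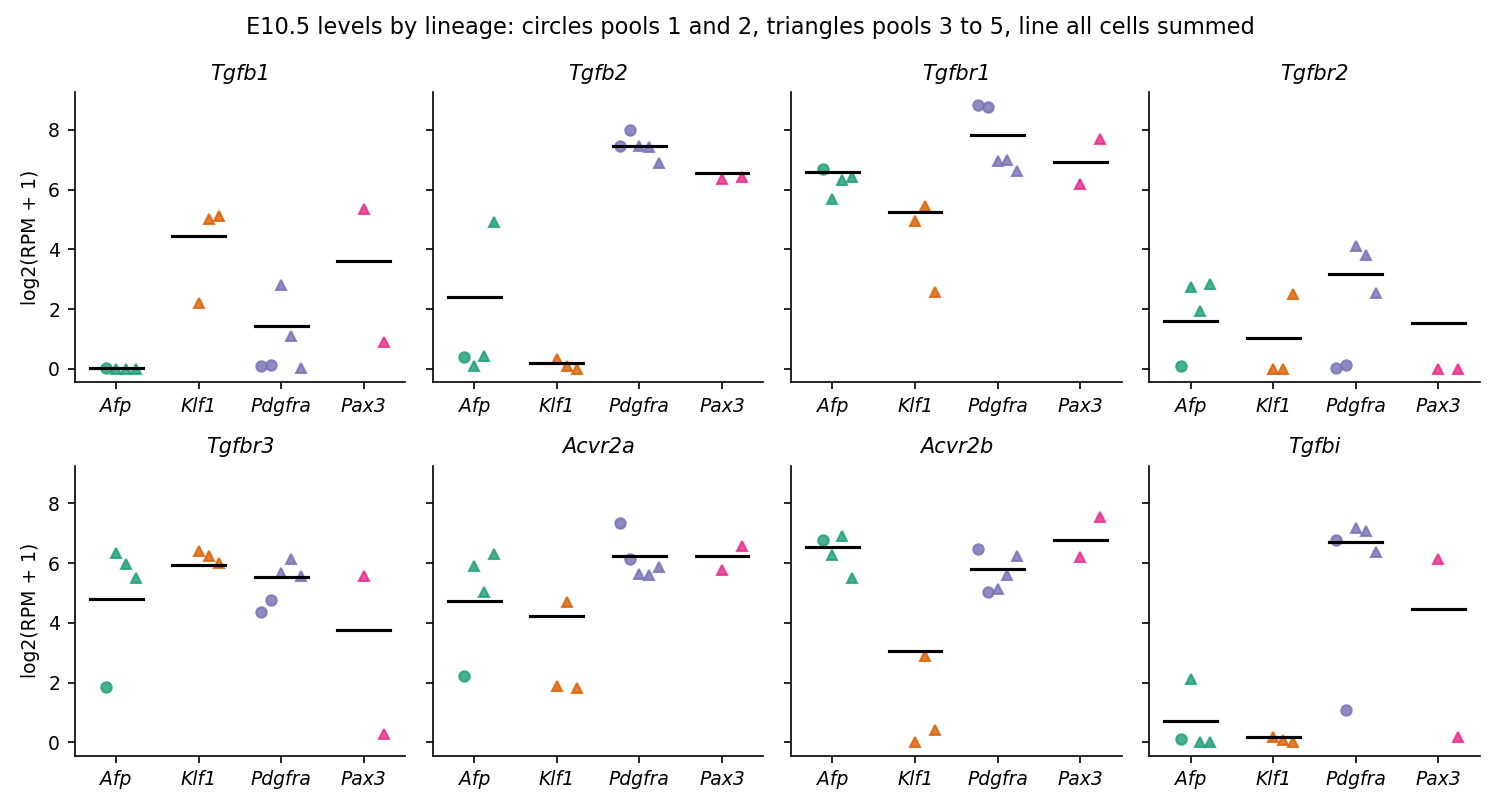
Each point is the E10.5 level of a gene in 1 library pool holding at least 5 cells of the lineage, as log2(RPM + 1), with circles for pools 1 and 2, triangles for pools 3, 4 and 5, and a line for all cells of the lineage summed. Tgfb2 pool values in Pdgfra cells, 118.4 to 257 RPM, lie above all those in Afp and Klf1 cells, and the Tgfbr2 values of Pdgfra cells in pools 1 and 2 lie near 0.

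Tgfbr1 (ENSMUSG00000007613, chr4:47353222-47414931, plus strand), the type I kinase that phosphorylates Smad2 and Smad3, was the most broadly read member. E10.5 Pdgfra cells had 225 RPM (95% interval 223 to 227), with 95 cells (68.3%, 59.9 to 75.97%) past 10 reads. The Pax3 lineage held 119.2 RPM (115.4 to 123.04) with 18 of 25 cells (72%, 50.6 to 87.9%), a share whose interval overlapped that of Pdgfra cells. Afp cells stood at 95.7 RPM (93.4 to 97.9) with 20 of 59 cells (33.9%, 22.1 to 47.4%). The E10.5 Klf1 level was 37.3 RPM (35.4 to 39.3) with 8 of 32 cells (25%, 11.5 to 43.4%), and at E13.5 it was 57.7 RPM (56.4 to 58.95) with 28 cells (21.9%, 15.1 to 30.04%). Pdgfra cells gave 453, 434, 123.8, 125.5 and 98.3 RPM in pools 1, 2, 3, 4 and 5, so pools 1 and 2 lay at or above 434 RPM and the other three at or under 125.5 RPM. Afp cells gave 101.9, 50.9, 79.9 and 84.3 RPM in pools 2, 3, 4 and 5. The Pdgfra and Afp ranges overlapped over all pools, although Pdgfra cells were higher within each pool that held both.

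Tgfbr2 (ENSMUSG00000032440, chr9:116084293-116175360, minus strand), the type II receptor that binds the ligand, was far scarcer in the same cells. E10.5 Pdgfra cells had 7.98 RPM (95% interval 7.56 to 8.41), and 12 cells (8.63%, 4.54 to 14.6%) passed 10 reads, of which 10 also passed for Tgfbr1. Pool values were 0.0306, 0.0841, 16.2, 12.97 and 4.87 RPM in pools 1, 2, 3, 4 and 5, close to 0 in the pools with the highest Tgfbr1. Pools 1 and 2 are those with fewer genes detected per cell, and the part of that in the Tgfbr2 level was not tested. Afp cells held 2.07 RPM (1.76 to 2.43) with 5 of 59 cells (8.47%, 2.81 to 18.7%), Klf1 cells 1.05 RPM with 1 of 32 cells, and Pax3 cells 1.90 RPM with 1 of 25 cells. At E13.5 Klf1 cells had 9.82 RPM (9.31 to 10.4) with 8 cells (6.25%, 2.74 to 11.9%). Per kilobase of exon, a scale on which genes can be compared, E10.5 Pdgfra cells had 34.4 RPM per kilobase (RPKM) of Tgfbr1 and 0.975 RPKM of Tgfbr2, and Afp cells had 14.6 and 0.253 RPKM.

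Tgfbr3 (ENSMUSG00000029287, chr5:107106570-107289629, minus strand) encodes betaglycan, a co-receptor without a kinase that presents TGF-beta ligands, above all Tgfb2, to Tgfbr2. Unlike that of Tgfb2, its E10.5 level was not highest in Pdgfra cells. The E10.5 levels were 60.03 RPM (57.6 to 62.5) in Klf1, 45.4 RPM (44.4 to 46.5) in Pdgfra, 27.1 RPM (25.9 to 28.3) in Afp and 12.7 RPM in Pax3 cells. The shares past 10 reads were 17 of 32, 43 (30.9%), 17 of 59 and 1 of 25 cells. In Pax3 cells 97.3% of the reads came from 1 cell. E13.5 Klf1 cells had 37.9 RPM (36.9 to 38.9) with 37 cells (28.9%, 21.2 to 37.6%). Pools ran at 83.7, 75.3 and 63.4 RPM in pools 3, 4 and 5 in E10.5 Klf1 cells and at 19.7, 26.5, 49.8, 69.1 and 46.8 RPM in pools 1, 2, 3, 4 and 5 in Pdgfra cells, and the ranges of these lineages overlapped. The 8 Pdgfra cells of E13.5 held 252 RPM (241 to 263) with 5 of 8 cells past 10 reads, 55.3% of the reads being from 1 cell.

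Among the E10.5 Pdgfra cells, Tgfb2 and Tgfbr1 passed 10 reads together in 48 (34.5%), Tgfb2 and Tgfbr3 in 27 (19.4%), and Tgfb2 and Tgfbr2 in 6 (4.32%). The product of the single shares alone would give 44.4, 20.1 and 5.61 cells. At least 1 of the 5 receptors passed in 84.9% of them. Afp cells were mostly receptor without ligand by the same measure, with a receptor in 41 of 59 and a Tgfb ligand in 1. Klf1 cells had a receptor in 23 of 32 at E10.5 and 70 (54.7%) at E13.5, and a ligand in 11 and 34. A message can be missed in a cell that makes it, so a cell counted without a ligand or receptor may hold it. Doublets and free RNA were not tested either, and these counts set no limit on shared expression.

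By summed level, the activin type II receptors ranked the lineages differently. Acvr2b (ENSMUSG00000061393, chr9:119402118-119434995, plus strand) was high in Afp and Pax3 cells, at 91.6 RPM (95% interval 89.5 to 93.9) and 107.6 RPM (103.98 to 111.2), and 29 of 59 cells (49.2%, 35.9 to 62.5%) and 14 of 25 cells (56%, 34.9 to 75.6%) passed 10 reads. Pdgfra cells had 54.9 RPM (53.8 to 56.1) with 53 cells (38.1%, 30.03 to 46.7%). Klf1 cells were low at both stages, with 7.33 RPM (6.50 to 8.22) in 2 of 32 cells at E10.5 and 8.72 RPM (8.24 to 9.22) in 5 (3.91%) cells at E13.5. The Acvr2b level was 109.3, 76.1, 118.6 and 44.5 RPM in pools 2, 3, 4 and 5 for Afp and 87.5, 31.9, 34.1, 48.05 and 74.1 RPM in pools 1, 2, 3, 4 and 5 for Pdgfra cells, and these ranges overlapped. Acvr2a (ENSMUSG00000052155, chr2:48814109-48903269, plus strand) was instead high in Pdgfra and Pax3 cells, at 74.6 RPM (73.3 to 75.9) and 74.2 RPM (71.2 to 77.3), with 56 cells (40.3%, 32.1 to 48.9%) and 15 of 25 cells (60%, 38.7 to 78.9%). Afp cells had 25.5 RPM (24.4 to 26.7) with 11 of 59 cells, E10.5 Klf1 cells 17.9 RPM (16.6 to 19.2) with 7 of 32, and E13.5 Klf1 cells 15.03 RPM (14.4 to 15.7) with 19 (14.8%). In Pdgfra cells Acvr2a stood at 161.9, 69.8, 48.8, 47.5 and 58.2 RPM in pools 1, 2, 3, 4 and 5. Of the 4 pools with at least 5 cells of both lineages, Acvr2a was higher in Pdgfra than in Afp cells in 2 and lower in 2. Its log2 ratios within those pools ran from -0.43 to 4.24. Acvr2a shares 446 exon bases with Orc4 on the opposite strand, a gene with 111393 reads in all cells. Reads of the unstranded libraries cannot separate Acvr2a from Orc4 over those bases. Both type II receptors passed together in 8 of 59 Afp, 25 (17.99%) Pdgfra and 10 of 25 Pax3 cells of E10.5, and in no Klf1 cell of either stage. The product of the single shares would give 5.41, 21.4 and 8.40 cells, and 0.438 and 0.742 Klf1 cells at E10.5 and E13.5, both under 1 cell.

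Tgfbi (ENSMUSG00000035493, chr13:56609523-56639562, plus strand), a secreted matrix protein named for its induction by TGF-beta, was highest in the Pdgfra lineage. It stood at 103.5 RPM (95% interval 102.004 to 105.1) in E10.5 Pdgfra cells, and 56 cells (40.3%, 32.1 to 48.9%) passed 10 reads. Afp cells had 0.641 RPM (0.471 to 0.852) with 1 of 59 cells (1.69%, 0.0429 to 9.09%), and E10.5 Klf1 cells 0.128 RPM (0.0414 to 0.298) with 0 of 32 cells (up to 10.9%). The median depths of the Afp and Klf1 sets were 1258540 and 1310560 reads per cell against 1194520 in Pdgfra cells. Whether the few Tgfbi reads there came from these cells or from free RNA was not tested. Pax3 cells held 20.9 RPM in 3 of 25 cells. The level in Pdgfra cells was 107.3, 1.14, 143.95, 134.5 and 82.7 RPM in pools 1, 2, 3, 4 and 5, so pool 2 stood far below the others. Tgfb2 and Tgfbi passed 10 reads together in 36 of these cells (25.9%), where the product of their shares gives 26.2. The 8 Pdgfra cells of E13.5 had 269.6 RPM (259 to 281) of Tgfbi in 4 of 8 cells and 2.17 RPM (1.29 to 3.44) of Tgfb2 in 1 of 8 cells.

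**Figure D3:**
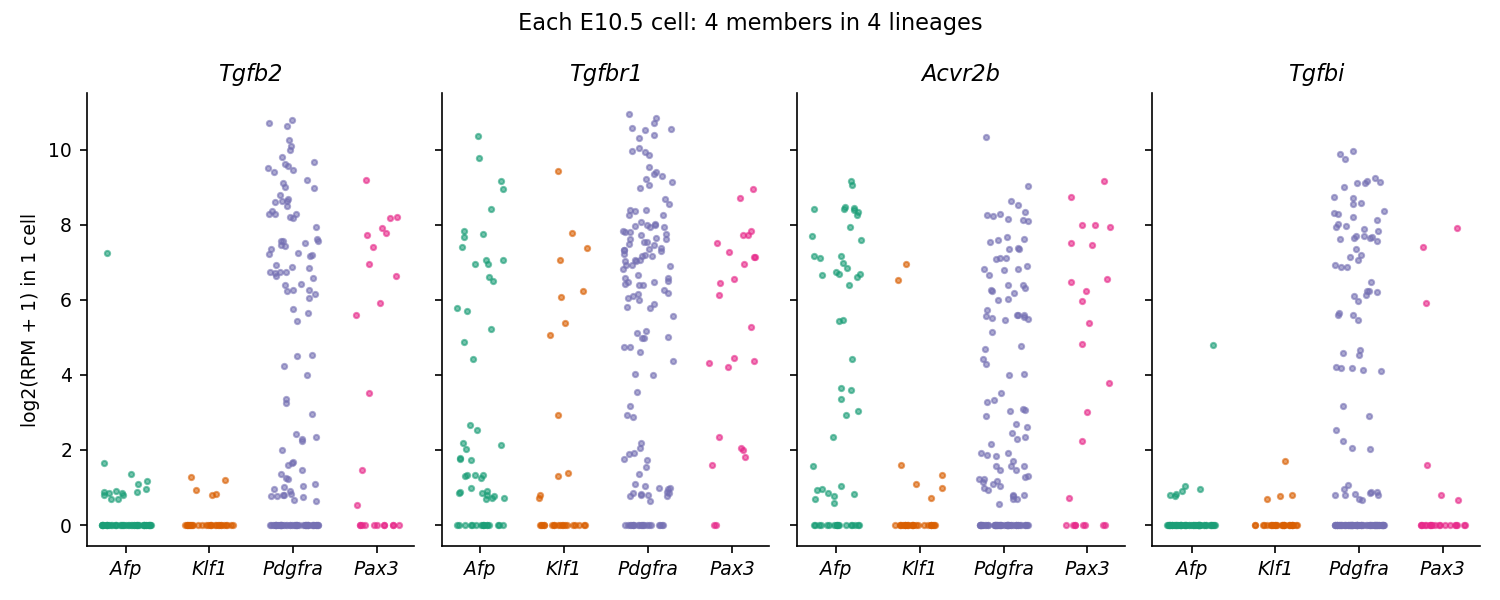
Each point is 1 E10.5 cell, plotted as log2(RPM + 1) for Tgfb2, Tgfbr1, Acvr2b and Tgfbi in the 4 lineages, with sideways scatter for legibility only. In Pdgfra cells the values run from 0 up to 1756 RPM for Tgfb2 and 992 RPM for Tgfbi, while for each of these genes all but 1 of the Afp cells lie near 0.

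The lineages were then compared at E10.5 by a fixed rule over all genes. A gene entered if it reached 1 RPM in either set, and it was called where the summed levels differed at least 2-fold and in the same direction in every pool with at least 5 cells of both sets. Ratios are log2 of Pdgfra over the other lineage, the interval covers counting error, and the range is that within pools. The rule is a description of these libraries and gives no p-value. Shares over all genes are given for this rule only and not for the changed settings named below. Genes at 1 RPM or more in both sets had a median ratio of 0.14 against Afp, 0.03 against Klf1 and 0.11 against Pax3 cells, and the ratios below are not corrected for that shift.

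Against Afp cells, 3 of 9 members that entered were called, all higher in Pdgfra cells, beside 18.7% of all genes (12% higher and 6.69% lower). They were Tgfb2 with 5.36 (5.19 to 5.52 and 2.02 to 11.09 within 4 pools), Tgfbi with 7.34 (3.59 to 8.13 within pools) and Tgfbr1 with 1.23 (0.22 to 2.09 within pools). Acvr2b pointed to Afp cells with -0.74, but its pools ran from -1.78 to 0.74. Acvr2a and Tgfbr2 had 1.55 and 1.94 with pools of both signs, and Tgfbr3 0.75. Tgfb1 and Tgfb3, nearly or wholly unread in Afp cells, were not called because a direction could be set in only 3 of 4 pools. Over pools 3, 4 and 5 alone Tgfbr1 was not called, and without pool 5 the count was 5 members in place of 3.

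Against Klf1 cells, 7 of 9 members were higher in Pdgfra cells, beside 37.8% of all genes (27.6% higher and 10.2% lower), over pools 3, 4 and 5. Tgfb2 had the widest gap at 10.17 (9.04 to 11.61), followed by Tgfbi at 9.66 (8.44 to 11.29). Acvr2b stood at 2.91 (2.88 to 7.72 within pools), Tgfbr1 at 2.59 (1.57 to 4.32) and Acvr2a at 2.06 (0.92 to 4.499). Tgfbr2 reached 2.93, with a lowest pool of 0.06. Of the Klf1 reads of Tgfbr2 95.1% came from 1 cell (0.0534 RPM without it), and the ratio turned to -1.14 with lineages set by any marker read. Tgfb3, without a read in Klf1 cells, was 55.8-fold higher with the Klf1 set put at 3 reads. On the log2 scale that is 5.80, and the lower 95% limit from counting error was 5.50. Tgfb1 was lower in Pdgfra cells in sum, at -3.64, and not called, since pools ran from -10.05 to 0.75. Tgfbr3 was at -0.40, a difference under 2-fold that had the same sign in all 3 pools. Where lineages were set by any read of a marker in place of more than 10, 1 member was called.

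Against Pax3 cells, 5 of 9 members were called, beside 26.5% of all genes (21.2% higher and 5.26% lower), but only pools 3 and 5 held enough cells of both. Tgfbi at 2.31, Tgfbr2 at 2.07, Tgfbr3 at 1.84 and Tgfb3 at 1.59 were higher in Pdgfra cells, and Tgfb1 at -2.74 lower. The Pax3 reads of Tgfb1, Tgfb3, Tgfbr2 and Tgfbr3 came mostly from 1 cell each (96.6%, 97.8%, 98.3% and 97.3% of reads), and without that cell the Pax3 levels were 0.394 RPM, 0.0327 RPM, 0.0331 RPM and 0.368 RPM. The called difference in Tgfb1 thus rested on that cell, since 1.68 RPM in Pdgfra cells lay above what was left. Tgfb2, Tgfbr1 and Acvr2a were not called, at 0.92, 0.92 and 0.01. Acvr2b was lower in Pdgfra cells in both pools but short of 2-fold at -0.97, and it was called lower under scaling by size factors.

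**Figure D4:**
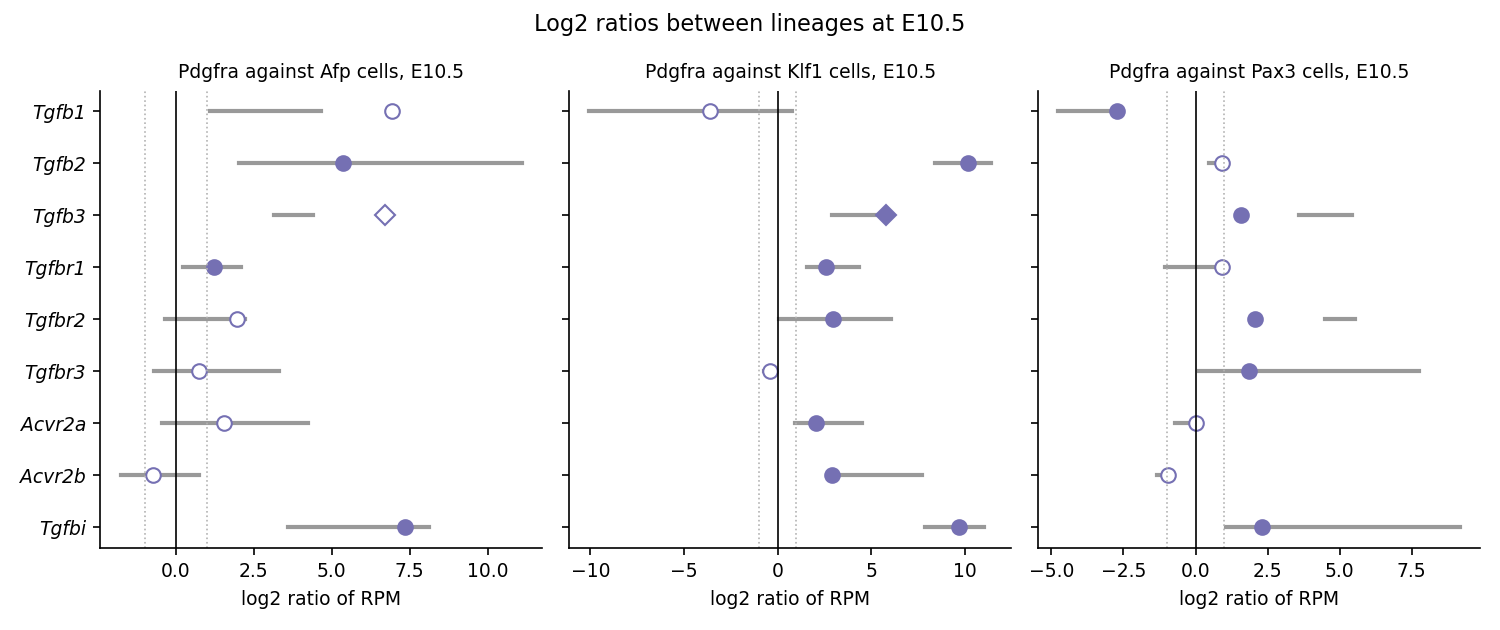
Log2 ratios of RPM, Pdgfra over Afp, Klf1 or Pax3 cells at E10.5, for the 9 genes with a level of 1 RPM or more in a set, with filled points where the rule called the gene, diamonds where a set without reads was put at 3 reads, grey bars for the range within pools and dotted lines at 2-fold. Tgfb2 and Tgfbi are far right of 0 against Afp and Klf1 cells, while against Pax3 cells Tgfb2 stays within 2-fold at 0.92.

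No member was called between the sorts among Pdgfra cells. Between 64 Lgr5-GFP+ and 75 bulk E10.5 Pdgfra cells, 0 of 9 members met the rule over the 5 pools, beside 2.47% of all genes (1.35% higher and 1.12% lower). Tgfb2 stood at 180.2 RPM (177.4 to 183.2) in Lgr5-GFP+ and 171.8 RPM (169.1 to 174.5) in bulk cells, Tgfbr1 at 234 and 217 RPM, Acvr2b at 59.7 and 50.6 RPM, and Tgfbi at 98.5 and 108.1 RPM. Tgfb2 gave 284, 181.1, 135.9, 180.4 and 123.9 RPM in pools 1, 2, 3, 4 and 5 of the Lgr5-GFP+ cells and 77.9, 299, 212, 162.2 and 113.5 RPM in pools 1, 2, 3, 4 and 5 of the bulk cells, which overlapped. The widest summed differences were those of Tgfb1, with 3.38 against 0.112 RPM, Tgfb3, with 1.72 against 6.63 RPM, and Acvr2a, with 45.5 against 101.4 RPM. For none could 1 direction be set in all 5 pools. Tgfbi was lower in Lgr5-GFP+ cells in each of 5 pools, with a log2 ratio of -0.13 over the summed reads, short of 2-fold. Without pool 5, 2 members met the rule.

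Between stages, only the Klf1 lineage had enough bulk cells for a comparison. Tgfbr2 was the 1 member called, of 7 that entered at 1 RPM, beside 12.8% of all genes (7.77% higher and 5.01% lower). It was higher at E13.5 by 3.01 on the log2 scale (2.61 to 5.57 within 3 pools), from 1.05 to 8.40 RPM, with 1 of 32 and 7 (5.6%) cells past 10 reads. Of the E10.5 reads 95.1% came from 1 cell, and 0.0534 RPM remained without it. Tgfb1 moved from 20.95 to 27.99 RPM and Tgfbr3 from 60.03 to 38.8 RPM, both short of 2-fold with 1 sign in each pool. Tgfbr1, Acvr2a and Acvr2b had ratios of 0.43, -0.22 and 0.29, although Acvr2a was higher at E13.5 within each of the 3 pools (0.61 to 2.55). Tgfb2, with 0.153 RPM at E10.5 and a ratio of 5.15, was not called because 1 of 3 pools pointed the other way. Where each cell was instead put in every lineage whose marker passed, no member was called, and without pool 3 it was 2 members.

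Over all cells of a group, comparisons added after the data were seen, the mix of lineages differed beside the levels. Klf1 cells were 78.6% of E13.5 bulk, 15.8% of E10.5 bulk, 3.75% of E13.5 Lgr5-GFP+ and 0% of E10.5 Lgr5-GFP+ cells. In sums over mixed cells, fewer cells of a type and less RNA per cell cannot be told apart, and the part of the mix in the differences was not tested. From E10.5 to E13.5 bulk cells Tgfb1 was higher, at 6.78 and 31.1 RPM. In the same direction of time Tgfb2 went from 112.3 to 7.70 RPM, Tgfbr1 from 134.6 to 60.3, Acvr2b from 63.2 to 12.6 and Tgfbi from 64.1 to 7.60 RPM, and these 5 of 9 members met the rule beside 19.4% of all genes (5.7% higher and 13.7% lower). Over pools 3, 4 and 5 alone Tgfbr1 was not among those called. Among Lgr5-GFP+ cells, Tgfb1 (4.02 to 30.3 RPM) and Tgfbr2 (6.55 to 116.5 RPM) were called higher at E13.5, 2 members beside 10.6% of all genes (2.46% higher and 8.18% lower). Tgfb2 in these cells was 135.1 and 105.2 RPM. At E13.5, Tgfbr1, Acvr2a and Tgfbi were called higher in Lgr5-GFP+ than in bulk cells, 3 members beside 15.5% of all genes (7.13% higher and 8.39% lower), with 179.8 against 60.3, 60.8 against 14.6 and 116.97 against 7.60 RPM. The call of Tgfbr1 was lost over pools 3, 4 and 5 alone and by the mean of per-cell RPM, and those of Acvr2a and Tgfbi held in both. At E10.5 no member was called between the sorts, beside 4.4% of all genes (2.56% higher and 1.83% lower). These comparisons share groups with one another.

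**Figure D5:**
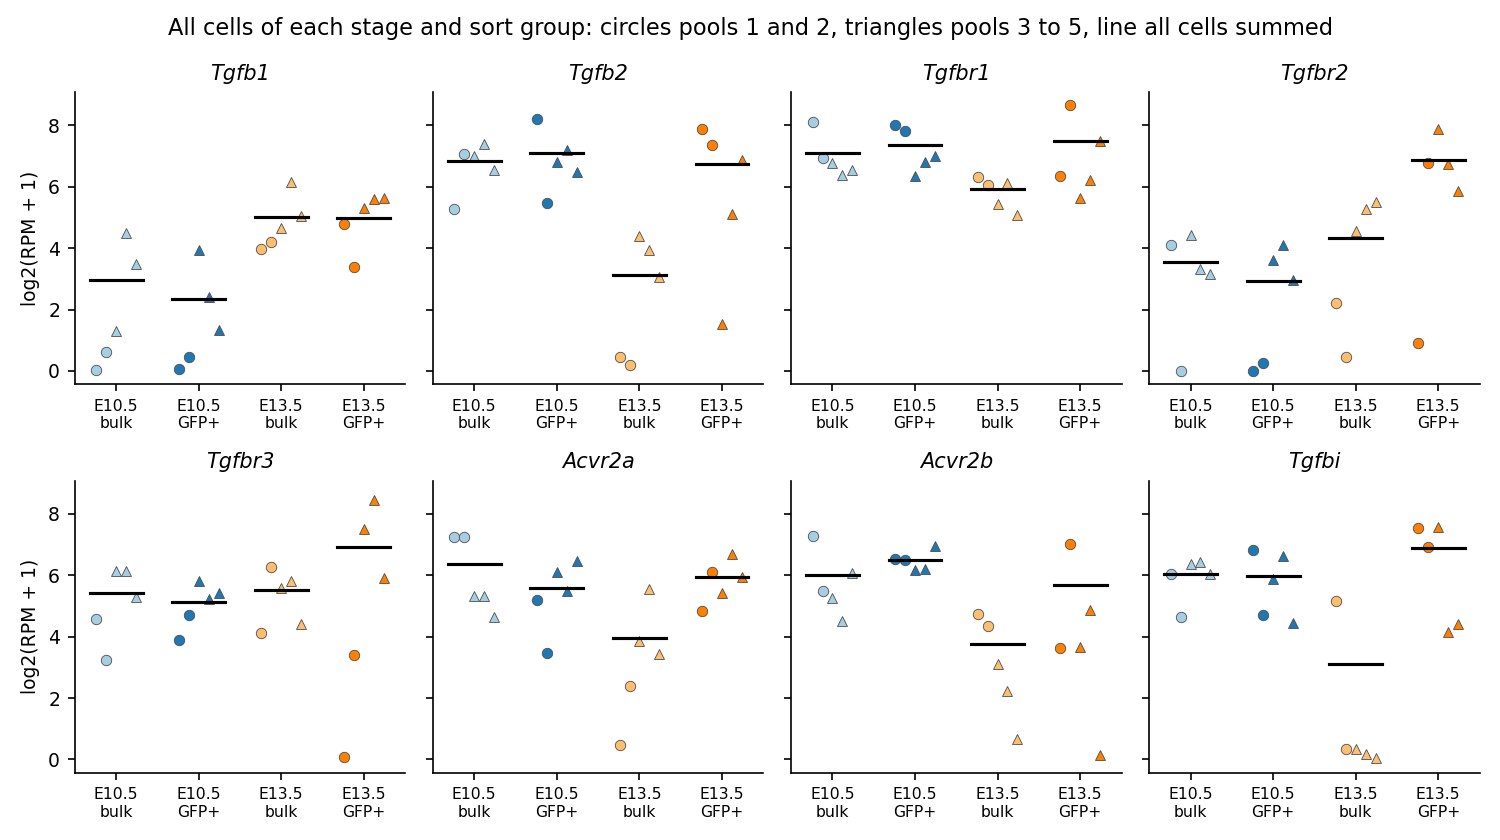
Each point is the level of a gene over all cells of a stage and sort group in 1 library pool, as log2(RPM + 1), with circles for pools 1 and 2, triangles for pools 3, 4 and 5 and a line for the summed level of the group. Tgfb1 pools of the E13.5 bulk group, 14.5 to 70.3 RPM, and of the E10.5 bulk group, 0.0201 to 21.3 RPM, overlap, although each pool alone is higher at E13.5.

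The 242 cells outside the lineages included E13.5 sets with more Tgfb1 and Tgfbr2 than the Klf1 or Pdgfra cells of either stage. They were split by more than 10 reads of Pecam1, Itga2b, Ptprc and Wt1, with 43, 29, 14 and 23 cells. Pecam1 is known from endothelium, Itga2b from megakaryocytes and early blood cells, Ptprc as the leukocyte antigen CD45 and Wt1 from mesothelium. These sets overlap, and the other cells passed for none of these markers. The Pecam1 and Itga2b sets were mixed in type. E10.5 Pecam1 cells summed to 988 RPM over 8 endothelial markers and 7637 RPM over 7 megakaryocyte markers. In the same order, their medians per cell were 235 and 334 RPM. E13.5 Pecam1 cells had medians of 3713 and 120 RPM, and E13.5 Itga2b cells of 764 and 311 RPM. The sort had selected against CD31, the product of Pecam1, and against CD45. In E13.5 Pecam1 cells the receptors Tgfbr2 and Tgfbr3 stood at 235 RPM (229.6 to 239.7) and 214 RPM (209.5 to 219), with 13 of 28 and 12 of 28 cells past 10 reads, and Tgfb1 at 88.4 RPM (85.4 to 91.6) with 14 of 28. The 15 Pecam1 cells of E10.5 had 27.2 RPM of Tgfbr2, 93.1% of it in 1 cell, 51.7 RPM of Tgfbr3 and 20.6 RPM of Tgfb1, the last of these close to that of E10.5 Klf1 cells. In Itga2b cells Tgfbr2 had 0.0424 RPM at E10.5 and 141.2 RPM at E13.5, where 5 of 11 cells passed. Their Tgfb1 level was 25.2 and 76.7 RPM, but 74.2% of the E13.5 reads came from 1 cell and 21.4 RPM remained without it. Ptprc cells, all of E13.5, had 85.7 RPM (81.3 to 90.3) of Tgfb1, 195.2 RPM (188.5 to 202.1) of Tgfbr1 and 129.02 RPM (123.6 to 134.6) of Tgfbr2, but 0.911 RPM of Tgfbr3 and 0.425 RPM of Acvr2b, with no cell past 10 reads for either. The 18 Wt1 cells of E10.5 had 165.7 RPM (160.3 to 171.3) of Tgfb2 in 9 of 18 cells, 114.9 RPM of Acvr2b in 10 of 18 and no read of Tgfbr2. In the 5 of E13.5, 92.5% of the Tgfb2 and 95.4% of the Tgfbr2 reads came from 1 cell each. Summed over E10.5 and E13.5, the cells without a further marker held 163.98 RPM of Tgfbr1, 137.4 of Tgfb2, 102.8 of Acvr2b and 1.12 of Tgfb1. Most of these cells were in pools 1 and 2, whereas most E13.5 Pecam1 cells were in pools 3 and 4. No range over pools is given for the sets outside the lineages, and the part of the pools in their levels was not tested.

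The rest of the pathway was taken from lists of related genes, and counts are of members that entered at 1 RPM. Pdgfra cells of E10.5 were higher than Afp cells in 1 of 5 Smads, 3 of 6 extracellular inhibitors, 3 of 11 latency and activation genes, 2 of 11 intracellular regulators, 6 of 16 genes listed as transcriptional targets, 1 of 5 other receptors and 0 of 3 other ligands. They were lower in 1 of the extracellular inhibitors, 1 of the genes listed as transcriptional targets, 1 of the other receptors and 1 of the other ligands, beside 18.7% of all genes (12% higher and 6.69% lower). The genes of all lists that were higher included Snai2, a transcription factor of migrating mesenchyme (166.6 against 0.177 RPM), Postn, a matrix protein (554 against 0.709 RPM), Dcn, a proteoglycan that binds TGF-beta (478 against 1.43 RPM), and Eng, an accessory receptor (26.3 against 0.0818 RPM). Afp cells were instead higher in Gdf15, a distant family ligand (0.00582 against 89.8 RPM), Fst, the activin-binding protein follistatin (6.49 against 83.9 RPM), Cdkn1a, a cell cycle inhibitor (13.2 against 88.7 RPM), and Acvr1, a type I receptor (47.4 against 118.04 RPM).

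Against Klf1 cells, 5 of 5 Smads, 6 of 7 extracellular inhibitors, 7 of 12 latency and activation genes, 7 of 11 intracellular regulators, 13 of 16 genes listed as transcriptional targets, 2 of 5 other receptors and 1 of 2 other ligands were higher in Pdgfra cells. The lists also gave 1 of the latency and activation genes and 1 of the other ligands as lower, beside 37.8% of all genes (27.6% higher and 10.2% lower). Smad7, the inhibitory Smad, had 84.1 against 0.0766 RPM, and Pmepa1, an inhibitor of receptor Smads, 22.5 against 0.0255 RPM. Gdf3, a nodal-like ligand, and Nrros, which tethers latent TGF-beta 1, were higher in Klf1 cells, with 0.0291 against 109.4 RPM and 0.785 against 107.8 RPM in the Pdgfra and Klf1 sets. Against Pax3 cells, 1 of 5 Smads, 4 of 6 extracellular inhibitors, 3 of 11 latency and activation genes, 2 of 11 intracellular regulators, 6 of 16 genes listed as transcriptional targets, 2 of 5 other receptors and 0 of 1 other ligands were higher and 1 of the intracellular regulators lower, beside 26.5% of all genes (21.2% higher and 5.26% lower). Dcn stood at 478 against 0.127 RPM and Bgn, a related proteoglycan, at 29.1 against 0.158 RPM, and Smurf1, a ubiquitin ligase acting on Smads and receptors, was lower at 18.2 against 75.1 RPM. Between the sorts within Pdgfra cells 1 listed gene was called, Smad3 (45.4 against 97.6 RPM in Lgr5-GFP+ and bulk cells), beside 2.47% of all genes (1.35% higher and 1.12% lower), and that count was not read as a result on the lists.

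In bulk Klf1 cells, 2 of 5 Smads, 0 of 3 extracellular inhibitors, 0 of 8 latency and activation genes, 3 of 11 intracellular regulators, 6 of 11 genes listed as transcriptional targets, 2 of 4 other receptors and 0 of 2 other ligands were higher at E13.5. Of the lower genes the lists gave 1 of the latency and activation genes, 2 of the intracellular regulators and 1 of the other ligands, beside 12.8% of all genes (7.77% higher and 5.01% lower). The targets that were higher included Smad7 with 37.4 against 0.0766 RPM, Pmepa1 with 11.1 against 0.0255 RPM and Cdkn1a with 84.8 against 10.01 RPM, and Eng, with 16.98 against 0.510 RPM, was higher too. Nrros, Gdf3, Smurf1 and Zfyve9, a Smad anchor, were lower, Nrros with 27.5 against 107.8 RPM. Some genes stand in more than 1 list, Smad7 and Pmepa1 among them.

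The genes most like each member were sought by Pearson's r of log2(RPM + 1) over 24 sets (a lineage of 1 group in 1 pool), which share library pools and sorts, so r is a description. Tgfb2 was closest to Unc5c (r = 0.94) and Scarf2 (r = 0.92), Tgfb3 to Thsd7a (r = 0.97) and Fgf9 (r = 0.94), and Tgfbi to Lpar4 (r = 0.97) and Ddr2 (r = 0.95). Tgfb1 was closest to Itga4 (r = 0.89), Acvr2b to Prdm16 (r = 0.90), Tgfbr1 to Spin1 (r = 0.89) and Acvr2a to Fosb (r = 0.88). Tgfbr2 and Tgfbr3 had no neighbour above 0.76 and 0.79, those of Mast3 and Fbxo38, among 15688 genes.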

How the data were processed

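Reads of single cells prepared by an adapted Smart-seq2 protocol with Nextera XT were aligned by the authors with STAR 2.6.0c to GRCm38.p6 and counted per Ensembl gene with featureCounts of Subread 1.6.2, without strand. The deposited counts are whole numbers of uniquely aligned reads, not normalized, after the authors' cell filters. The series text names 471 E10.5 and 472 E13.5 cells, and the table analysed holds 414 and 239. A normalized table of selected genes was not used here. Scanpy 1.3.3 is named in the submitters' processing notes.

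Counts were summed per set and divided by the total on all 54195 genes, since cells are not replicates and each group is 1 sample, and no model was fitted and no p-value computed. Exact intervals came from scipy 1.17.1 with pandas 2.3.3 and numpy 2.4.6 under Python 3.11.15. RPKM used the union of a gene's exons. Library pools were read from the cell labels. The call rule needed 1 RPM in either set, 2-fold, 1 direction in every pool with at least 5 cells of both sets, and at least 10 cells a set. It was run on simulated cells drawn without differences between pools. That run cannot show how the rule behaves where pools differ, as they do here. Cells past more than 1 lineage marker were left out of the lineages as possible doublets, and no doublet caller was run. Of the comparisons considered, 3 could not be made for want of cells. Lists of related genes are given as counts, and their single genes were named from the first 5 by ratio among those called in each direction. The members, lists and rules were chosen with earlier results of these data known. Alternatives changed the marker limit, scaling, fold, filter, pools and depth (cells thinned to 400000 reads).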

Additional observations from a re-analysis of the deposited data

Results flagged for a closer look

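In sets with 4 or 5 pools, the highest or lowest pool was compared with its nearest neighbour by Dixon's limit, and 16 of 67 sets had a pool far from the others, in each case the highest. The limit flags about 1 set in 20 by chance only where values are normally distributed. Levels here are bounded at 0 and some rest on 1 cell, so that rate is no measure for the 16 sets. The sets also share pools and cells. Among the ligands, Tgfb1 had 12.8 RPM in pool 3 with the next pool at 1.90 in E10.5 Lgr5-GFP+ Pdgfra cells. Tgfb2 had 34.6 RPM in pool 5 with the next pool at 0.353 in E10.5 Lgr5-GFP+ Afp cells. Over all pools of that set, 94.6% of the reads came from 1 cell. Tgfb3 stood apart in 5 sets, with 21.1 RPM in pool 4 with the next pool at 4.69 in E10.5 bulk and 5.57 RPM in pool 3 with the next pool at 1.51 in E10.5 Lgr5-GFP+ Pdgfra cells. Over all cells it had 11.1 RPM in pool 4 with the next pool at 1.80 in E10.5 bulk, 1.67 RPM in pool 5 with the next pool at 0.271 in E13.5 bulk and 8.97 RPM in pool 4 with the next pool at 1.16 in E13.5 Lgr5-GFP+ cells.

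Among the receptors, Tgfbr1 had 128.6 RPM in pool 2 with the next pool at 44.6 in E13.5 bulk Klf1 cells, 525 RPM in pool 1 with the next pool at 192.5 in E10.5 bulk Pdgfra cells and 273 RPM in pool 1 with the next pool at 120.3 over all E10.5 bulk cells. Acvr2a had 249.1 RPM in pool 1 with the next pool at 108.8 in E10.5 bulk Pdgfra cells and 46.003 RPM in pool 4 with the next pool at 13.4 over all E13.5 bulk cells. Acvr2b had 28.7 RPM in pool 1 with the next pool at 4.28 in E13.5 bulk Klf1 cells and 128.6 RPM in pool 2 with the next pool at 28.1 over all E13.5 Lgr5-GFP+ cells. Tgfbi had 4.07 RPM in pool 3 with the next pool at 0.101 in E10.5 Lgr5-GFP+ Afp cells and 34.5 RPM in pool 1 with the next pool at 0.270 over all E13.5 bulk cells. Over all pools of the E13.5 bulk group, 96.96% of the Tgfbi reads came from 1 cell.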

How the results depend on the processing

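The counts of members called held within 1.5 times of the values in the report except as follows. The share of all genes called is given for the main rule only. Counts under other settings therefore describe how the rule depends on its settings, and they were not read as results on the members. Against Afp cells 3 members were called, but 7 with no requirement on pools, 5 without pools 3, 4 and 5, and 2 to 5 with 1 pool left out in turn. Against Klf1 cells 7 became 1 with lineages set by more than 0 marker reads, and leaving out a pool gave 7 to 8. Against Pax3 cells it was 5, and 4 to 7 without a pool. Between the sorts in Pdgfra cells 0 became 2 with markers at more than 0 reads, 1 at more than 50 reads, 1 by the mean of per-cell RPM, 1 with cells thinned to 400000 reads, 3 with no requirement on pools, 2 without pools 3, 4 and 5, and 0 to 2 with a pool left out. Between the stages in Klf1 cells 1 became 2 with markers at more than 0 reads, with 1.5-fold or with no requirement on pools, 0 with cells placed in every lineage whose marker passed, and 1 to 2 with a pool left out.

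Among the whole groups compared after the data were seen, the sorts at E10.5 went from 0 to 1 without pools 3, 4 and 5 or with those alone, and 0 to 1 with a pool left out. The sorts at E13.5 went from 3 to 8 with no requirement on pools and to 5 without pools 3, 4 and 5, with 2 to 4 leaving out a pool. The stages in Lgr5-GFP+ cells went from 2 to 4 without pools 3, 4 and 5 and to 4 with those alone, with 2 to 3 leaving out a pool, and the stages in bulk cells gave 5 to 6. The share of E10.5 Pdgfra cells with Tgfb2 was 66.9% at 1 read or more against 46.8%, and 37.9 to 52.3% with a pool left out, the lowest without pool 4. With markers at more than 0 reads, the ratio of Tgfbr2 against Klf1 cells was -1.14 and that of Tgfb1 against Pax3 cells 1.44, the reverse of the report's. The causes were not tested. Over single members and settings, 1422 values moved by no more than the standard deviation over pools. Among ratios of members called in the report, 2 changed sign. The rest moved by more, and changes of sign in members not called were counted there. Without pools 3, 4 and 5, Tgfbr3 turned from higher to lower between the E13.5 sorts and between the stages in Lgr5-GFP+ cells.

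Without pools 3, 4 and 5 no value could be had against Klf1 or Pax3 cells or between stages in Klf1 cells. The call rule compared sets within library pools. No paired analysis with a replicate block was possible because each group is 1 sample and no model was fitted. With 1 sample a group, stage and sort cannot be separated from embryo and day, and levels under the bound of 3 reads were not detectable.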
